A study of Mus musculus with 4 samples.

Results

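The odorant receptors of mammals fall into 2 classes, and the class I receptors of the mouse lie together in a single cluster on chromosome 7. The set described here holds the 126 genes of the UMI tables with the symbols Olfr543 to Olfr692, without suffixed pseudogene rows, together with Olfr33, Olfr64, Olfr65, Olfr66, Olfr67, Olfr68, Olfr69 and Olfr78. They are 126 of the 49671 genes in the tables and 11.4% of the odorant receptor genes with a plain number, of which the other 978 are called class II here. The cells were dissociated from olfactory epithelium of the outbred strain CD-1, with no treatment or genotype named, and 1 library was made on the day of birth (P0) and 1 each at the later ages P3, P7 and P21, in days. The labels call the samples sorted, but the sources used here give neither the sort gate nor the number of mice in a library. Values are UMIs, the unique molecular identifiers that count captured RNA molecules in each cell. With 1 library per age, a difference between ages has no replicate check, whereas class I and class II cells were compared inside each of the 4 libraries.

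Odorant receptors are G protein-coupled receptors in the cilia of olfactory sensory neurons. A mature neuron expresses a single receptor gene from a single allele, and a receptor is chosen while the neuron still expresses Gap43, before it turns on Omp, the olfactory marker protein. Class I receptors resemble those of fish and are expressed mostly in the dorsal zone of the epithelium, whose neurons also express Nqo1, a quinone reductase, and Acsm4, an acyl-CoA synthetase. Class II receptors are expressed in dorsal and ventral zones. Bcl11b, a zinc finger transcription factor, is known from knockout studies to favour class II over class I choice.

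The tables held 2703, 3220, 1787 and 1416 cell barcodes at P0, P3, P7 and P21, where the protocol gives about 1400 to 3000 captured cells per sample. After filtering 2691, 3220, 1785 and 1413 remained, with medians of 3227 to 4982 UMIs per cell. Cells with 3 or more Omp UMIs numbered 615, 620, 476 and 958 and are called Omp cells. Cells with 3 or more Gap43 and under 3 Omp UMIs numbered 655, 521, 397 and 115 and are called Gap43 cells. A cell used a receptor when it held 3 or more of its UMIs. The P0 and P3 tables shared 68 cell barcodes, where the other 5 pairs of libraries shared 1 to 9. In 12 of the 12 shared P0 and P3 barcodes with a receptor in both tables, both copies used the same receptors, so these 2 libraries are not fully separate. The shared barcodes held 0 class I neurons at P0 and 1 at P3, and results without them are given where they apply.

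In the GENCODE annotation of the mm10 build, the 126 genes span 2893 kb of chromosome 7, from 102476579 to 105369355, with 63 on each strand. The annotation calls 123 protein coding, 2 polymorphic pseudogenes (Olfr663 and Olfr664) and 1 a transcribed pseudogene (Olfr687). RefSeq windows from 250 bases before to 50 after the start site were found for 108 members. In 75 of these the annotated start is the start codon itself, so the window is upstream of coding sequence, not of a mapped transcript start. In 16 members the start site lies more than 50 bases before the start codon. Olfr69 and Olfr690, each used by 5 Omp cells, are shown from that set. Beside them are the windows of Fam19a4 and Acsm4, non-receptor genes that were higher in class I than in class II cells. All are from the RefSeq GRCm38.p6 table, 5′ to 3′ on the gene's strand, with capitals for matches on either strand to 3 motifs: TATAAA, then the homeodomain core TAATTA, and CCCNNGGG.
Olfr69, minus strand, chr7:103771545-103771844: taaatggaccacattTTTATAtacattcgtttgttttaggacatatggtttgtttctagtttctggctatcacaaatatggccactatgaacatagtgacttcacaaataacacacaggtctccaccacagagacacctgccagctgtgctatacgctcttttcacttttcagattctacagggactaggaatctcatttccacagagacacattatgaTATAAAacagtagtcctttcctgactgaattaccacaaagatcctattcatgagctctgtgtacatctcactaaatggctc
Olfr690, minus strand, chr7:105330229-105330528: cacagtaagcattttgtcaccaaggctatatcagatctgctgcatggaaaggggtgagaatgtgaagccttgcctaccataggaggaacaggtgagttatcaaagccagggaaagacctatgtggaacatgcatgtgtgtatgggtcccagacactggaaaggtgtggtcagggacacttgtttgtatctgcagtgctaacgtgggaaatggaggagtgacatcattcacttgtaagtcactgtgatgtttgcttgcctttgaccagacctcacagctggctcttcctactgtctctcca
Fam19a4 (Tafa4 in RefSeq), minus strand, chr6:97060362-97060661: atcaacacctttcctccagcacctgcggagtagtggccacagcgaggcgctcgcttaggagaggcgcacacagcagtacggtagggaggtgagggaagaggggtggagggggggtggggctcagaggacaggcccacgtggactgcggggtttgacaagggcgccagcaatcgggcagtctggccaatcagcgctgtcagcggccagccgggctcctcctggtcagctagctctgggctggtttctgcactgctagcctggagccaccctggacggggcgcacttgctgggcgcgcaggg
Acsm4, plus strand, chr7:119689776-119690075: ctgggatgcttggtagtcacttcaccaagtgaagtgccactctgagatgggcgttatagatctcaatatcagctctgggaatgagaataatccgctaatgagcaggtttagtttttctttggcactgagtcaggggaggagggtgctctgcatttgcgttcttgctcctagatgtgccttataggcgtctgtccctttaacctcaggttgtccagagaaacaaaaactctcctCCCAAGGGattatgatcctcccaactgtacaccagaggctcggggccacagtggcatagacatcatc
Olfr69 had 2 matches to TATAAA, Acsm4 had 1 to CCCNNGGG, and the other 2 windows had no match to the 3 motifs. TATAAA, the TATA box core, was present in 39.8% of the 108 class I windows, 41.2% of the class II windows and 13.6% of all windows of the same length. The core TAATTA was in 14.8%, 19.2% and 5.29%. CCCNNGGG, the centre of the olfactory Ebf site, was in 2.78%, 3.02% and 13.7%. Matches to TATAAA and TAATTA can share bases, and a match describes the window only.

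Class I receptors were used in about 1 in 10 neurons of the 3 younger libraries. In Omp cells the share at P0 was 10.4% (64 of 615 cells), with an exact Clopper-Pearson 95% interval of 8.11 to 13.1%. At P3 it was 12.9% (80 of 620 cells, 10.4 to 15.8%) and at P7 11.8% (56 of 476 cells, 9.01 to 15%). The P21 share was 6.16% (59 of 958 cells, 4.72 to 7.87%). The P21 interval lay below the other 3. A lower share of the P21 Omp cells also held 3 or more Nqo1 UMIs: 291 of 958, against 323 of 615, 291 of 620 and 196 of 476. Within those Nqo1 cells the class I share was 17.6%, 20.6%, 18.9% and 14.1%, again lowest at P21. The intervals of all 4 ages overlapped (10.3 to 18.6% at P21, 13.6 to 22.3% at P0), which does not show that the shares are equal. Of Omp cells with a class I and no class II receptor, 56 of 62, 57 of 73, 35 of 53 and 41 of 58 held 3 or more Nqo1 UMIs. The share of class I cells inside this gate thus also differed by age. The part of Nqo1 cells in the lower P21 share was not tested. Intervals cover counting error only. Without the shared barcodes the Omp share was 10.4% at P0 and 13.0% at P3.

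**Figure D1:**
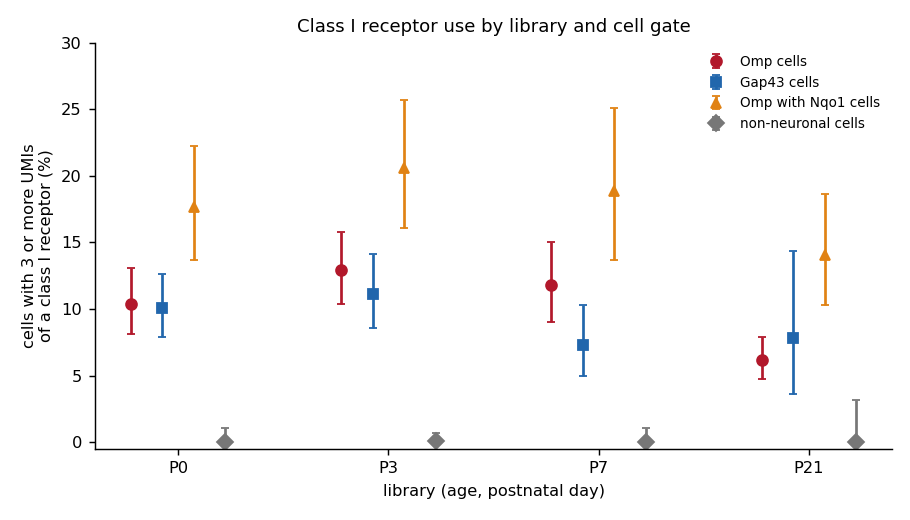
Share of cells (%) with 3 or more UMIs of a class I receptor at P0, P3, P7 and P21, in Omp cells, Gap43 cells, Omp cells with 3 or more Nqo1 UMIs and non-neuronal cells; points are shares of 1 library each and bars are exact 95% intervals. Omp cells range from 6.16% at P21 to 12.9% at P3, Nqo1 cells lie between 14.1% and 20.6%, and non-neuronal cells lie at 0 or 0.119%.

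Gap43 cells, the younger neurons, used class I receptors at a share close to that of Omp cells. The share was 10.1% at P0 (66 of 655 cells, 7.88 to 12.6%), 11.1% at P3 (58 of 521, 8.56 to 14.2%), 7.30% at P7 (29 of 397, 4.95 to 10.3%) and 7.83% at P21 (9 of 115, 3.64 to 14.3%). Fewer Gap43 cells had chosen any receptor, so class I cells were also counted among receptor users. They were 18.4%, 22%, 12.8% and 12.3% of receptor-using Gap43 cells and 12.6%, 15.7%, 14.7% and 7.25% of receptor-using Omp cells. The Gap43 share was higher in 3 of 4 libraries, with a mean difference of 3.83 percentage points ± 3.80 (SD, n = 4 libraries). A two-sided exact sign-flip permutation test over the 4 libraries gave p = 0.25, where the smallest p possible is 0.125.

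Cells that should lack receptors give the background of free RNA. Non-neuronal cells, with 3 or more UMIs of a supporting, basal, stromal, leukocyte or glial marker and under 3 of Omp and Gap43, used class I receptors in 0 of 357, 1 of 839, 0 of 339 and 0 of 114 cells. Taken as 3 cells of the total, a count of 0 allows up to 0.840% at P0, 0.885% at P7 and 2.63% at P21, and the upper ends of the exact intervals are 1.03%, 1.08% and 3.18%. At least 1 class I UMI was found in 4.76%, 3.69%, 2.95% and 4.39% of these cells, against 17.6%, 19.8%, 18.5% and 12.7% of Omp cells. Median depth was 2424 to 3852 UMIs in the former and 4433 to 6573 in the latter. With every cell thinned to 2000 UMIs, use in Omp cells was 9.32%, 11.5%, 11.4% and 5.30% (57, 54, 55 and 147 shallower cells left out), and use in non-neuronal cells was 0 in all 4 libraries (128, 100, 70 and 33 left out).

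Use was spread over most of the family. Of the 126 members, 83 were used in Omp cells and 83 in Gap43 cells, 68 of them in both. Another 28 were used in neither gate: 1 was used by another cell, 16 had UMIs but never 3 in a cell, and 11 had no UMI in any kept cell (Olfr64, Olfr555, Olfr564, Olfr574, Olfr583, Olfr589, Olfr624, Olfr631, Olfr645, Olfr663 and Olfr687). Omp cells of all 4 libraries used 10 members, those of 3 libraries 24, of 2 libraries 21 and of 1 library 28. The mean was 2.15 Omp cells per class I gene, next to 2.1 per class II gene and 1.89 for the 113 class II genes on chromosome 7. The share of genes used was 65.9% for class I and 71.7% for class II. Of 112 members with a 3′ UTR in the GENCODE annotation 96 were used in 1 gate or both, and of 14 without one 2 were used. The annotation used for counting is not given, and the part of the annotated 3′ end in use was not tested.

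The 25 most used members made up 54.6% of the 271 uses in Omp cells. Olfr571 led by mean share over the libraries, with 5, 5, 1 and 1 Omp cells at P0, P3, P7 and P21 but 1 Gap43 cell in all. Its users held at most 22 of its UMIs each. Olfr672 followed with 3, 3, 3 and 1 Omp cells and had a median of 186.5 UMIs in a using cell and up to 505. It stood at 189, 93.8, 337 and 111 CPM (counts of the gene scaled to 1000000 UMIs, here of all Omp cells). Olfr653 was used in 1, 1, 5 and 2 Omp cells, and Olfr550 in 1, 4, 2 and 1 Omp cells but in 0 Gap43 cells. In Gap43 cells the order differed: Olfr668 came first with 6 cells, against 1 Omp cell. These counts are too small to separate neighbours in the order, and 23 members were used by a single Omp cell.

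Of the 8 members outside the numbered run, 4 (Olfr68, Olfr78, Olfr65 and Olfr69) were among the 25 most used and 2 were not used in Omp or Gap43 cells. Olfr78, which is also known as an oxygen- or lactate-linked receptor outside the nose, was used by 1, 0, 3 and 0 Omp cells and 3 Gap43 cells. Olfr68 was used by 1, 4, 1 and 1 Omp cells, Olfr69 by 0, 2, 1 and 2, and Olfr65 by 2, 0, 2 and 0. Olfr33 and Olfr67 were each used by 1 Omp cell, at P0. Olfr64 had no UMI and Olfr66 had 1 UMI at most in a cell.

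**Figure D2:**
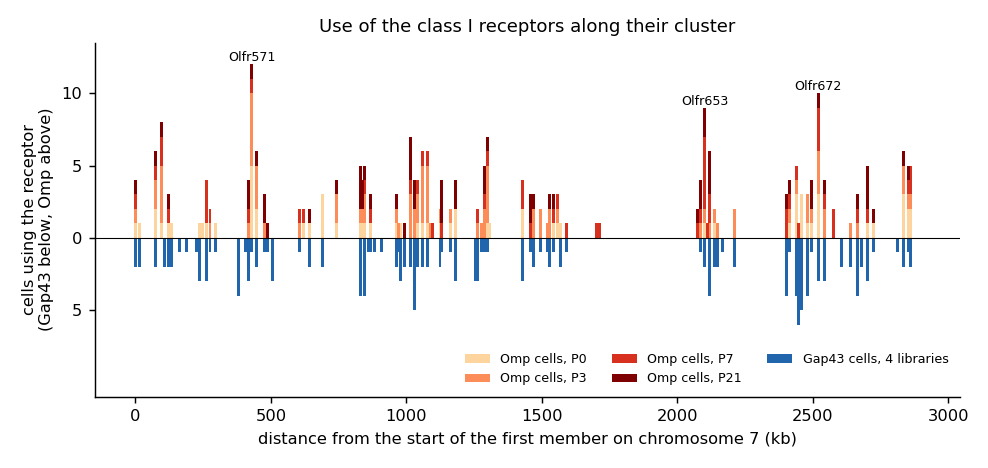
Number of cells using each of the 126 class I receptors against its distance from the first member (kb), with Omp cells above the line, coloured by library, and Gap43 cells of all 4 libraries below. Use is found along the whole cluster, and the tallest bars are Olfr571 with 12, Olfr672 with 10 and Olfr653 with 9 Omp cells; bars are wider than genes, so close neighbours overlap.

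Use was found along the whole cluster. In consecutive windows of 500 kb, Omp cells made 1.93, 1.64, 2.56, 1.36, 2.63 and 2.53 uses per member. The window from 1500 to 2000 kb was the lowest and also held the fewest members, 11. Every window had Omp cell uses in each of the 4 libraries. These values are a description, since members of 1 library share their cells and depth.

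Levels of single receptors by age follow a handful of cells each. Among 46 members with 20 or more UMIs at P0 or P21 in Omp cells, 19 (41.3%) were past 2-fold with the higher level at P21 and 15 (32.6%) past it in the other direction, with exact intervals that exclude 1. Class II receptors gave 54.3% and 26.6% of 429, and all genes 7.88% and 4.69% of 10659. Of the 34 class I members past the fold, 20 had 0 UMIs in 1 of the 2 libraries, and 15 came from 1 using cell on the higher side. Olfr570 had 1 UMI at P0 and 235 at P21, with 0 using cells at P0 and 2 at P21. The counting intervals leave out this sampling of cells, so no member is called changed with age. Summed over the family in Omp cells, class I UMIs made up 720 CPM at P0 (exact Poisson 95% interval 688 to 753) and 906 CPM at P3 (876 to 937). The P7 sum was 1110 CPM (1070 to 1152) and the P21 sum 722 CPM (697 to 747).

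The median UMIs of the leading receptor in class I Omp cells were 17, 31, 30 and 31 at P0, P3, P7 and P21, with a highest cell of 505. In class II Omp cells the medians were 17, 27, 29 and 28. As a share of all UMIs, the leading receptor was higher in class I than in class II cells in 4 of 4 libraries, by a mean log2 difference of 0.24 ± 0.21 (SD, n = 4) in Omp cells and 0.43 ± 0.12 in Gap43 cells. The two-sided exact sign-flip permutation p was 0.125 for both, the smallest that 4 libraries allow, and so neither passed 0.05. In Omp cells the direction rested on Olfr672, whose 3, 3, 3 and 1 cells held 501 of 1800, 349 of 3084, 860 of 2732 and 505 of 3189 leading UMIs. Without them class I cells were lower in 3 of 4 libraries, by a mean log2 difference of -0.048 ± 0.22 (SD, n = 4, exact sign-flip permutation p = 0.625). Olfr672 was picked after its values were seen, and no receptor was left out of the class II cells. Leaving out a high receptor on 1 side lowers that side by design. The value therefore describes the weight of 1 receptor and cannot test the class difference. In Gap43 cells the difference without Olfr672 cells was 0.35 ± 0.08 and higher in 4 of 4 libraries.

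A second receptor was found in a minority of class I cells. Of class I Omp cells, 6 of 64 held a second receptor at P0 (9.38%, 3.52 to 19.3%), 11 of 80 at P3 (13.8%, 7.07 to 23.3%), 5 of 56 at P7 (8.93%, 2.96 to 19.6%) and 3 of 59 at P21 (5.08%, 1.06 to 14.1%). In class II Omp cells the shares were 5.83%, 6.90%, 5.47% and 3.44%. Class I Gap43 cells held one in 7 of 66, 2 of 58, 3 of 29 and 2 of 9 cells (10.6%, 3.45%, 10.3% and 22.2%), and class II Gap43 cells in 6.10%, 9.18%, 13.2% and 9.38%. Class I Omp cells with a second receptor had more UMIs at P3, P7 and P21 (medians of 7515, 7239 and 7009, against 6448, 3831 and 4083.5) and fewer at P0 (3799 against 4471). Class I Gap43 cells with one had more at P0, P3 and P7 (4173, 10794.5 and 5996, against 3664, 5945 and 5596) and fewer at P21 (4745.5 against 7590). Doublets were not removed, and their part was not tested.

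Where both receptors were class I, the pairs that recurred lay close together. Over both gates, 22 such cells held 12 different pairs. The 2 receptors were immediate neighbours in 12 of the 22 cells, and the 4 pairs that recurred made up 14 cells. Olfr611 and Olfr612, on the minus strand with 16375 bases between them, were found together in 6 cells of 3 libraries, for example with 76 and 24 UMIs at P7. They share 26.4% of the 98-base stretches of Olfr611, so reads of 1 could be counted for the other. Olfr597 and Olfr598 recurred in 3 cells of 3 libraries (23 and 8 UMIs at P0, 99 and 36 at P3, 48 and 15 at P21). They share no 98-base stretch, run in the same direction and are annotated 768 bases apart. Olfr690 and Olfr691, with 1404 bases between them on the same strand, recurred in 3 cells, and Olfr642 and Olfr643, whose annotated spans overlap, in 2. Whether these are 2 transcripts or reads of 1 that ran past an annotated end was not tested.

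To see which other genes go with class I choice, cells with a class I receptor only were compared with cells with a class II receptor only, by summing UMIs per library. There were 62, 73, 53 and 58 class I and 444, 428, 326 and 755 class II Omp cells. Of 9312 genes tested outside the receptor family, 2.35% differed: 116 (1.25%) were higher and 103 (1.11%) lower in class I Omp cells (edgeR quasi-likelihood test with library as a block, adjusted p under 0.05). In Gap43 cells, with 63, 57, 29 and 9 class I against 292, 206, 197 and 64 class II cells, 7.8% of 6042 genes differed, 237 (3.92%) of them higher and 234 (3.87%) lower. DESeq2 called fewer in both, 47 and 32 in Omp cells and 75 and 83 in Gap43 cells. Leaving out a library lowered the Omp counts to between 72 and 90 higher and between 55 and 67 lower genes. Without P3 the Gap43 counts were 142 and 137, and without P7 145 and 154.

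Genes of the dorsal zone were higher and genes of the ventral zone lower in class I cells. Of 4 dorsal genes, Nqo1, Acsm4 and Robo2 rose in class I Omp cells and Sema3f did not pass the test, with a median log2 difference over the list of 1.06 against -0.00338 over all genes tested. Nqo1 (chr8:107388225-107403206) was at 5238, 2955, 2510 and 2814 CPM in class I cells and at 2053, 1656, 1328 and 1051 CPM in class II cells at P0, P3, P7 and P21. Every class I sum was higher than its class II partner, 2.22-fold by the fit (log2 1.15 ± 0.08 SE, edgeR adjusted p = 1.5e-13). Acsm4 (chr7:119690026-119714565) was at 1143, 1069, 896 and 950 CPM against 524, 390, 458 and 293 CPM (log2 1.34 ± 0.09 SE, edgeR adjusted p = 8.93e-14). Robo2, the Slit receptor that guides dorsal axons, was at 90.8, 123, 159 and 83.1 CPM against 61.8, 69.6, 82.7 and 69.9 CPM (log2 0.70 ± 0.15 SE, edgeR adjusted p = 0.00423), but its adjusted p was 0.0835 without P3 and 0.106 without P7. Sema3f, a secreted guidance cue, had 13 UMIs in class I cells and was not called (edgeR adjusted p = 0.588).

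Of 5 ventral genes, 4 fell in class I Omp cells, with a median log2 difference of -1.61 over the list. Ncam2 (chr16:81200697-81626828), an adhesion molecule of ventral axons, was found in 4 of 246 class I cells and in 429 of 1953 class II cells. Its level was 3.78, 4.57, 0 and 3.61 CPM against 44.2, 63.9, 74.4 and 54.0 CPM (log2 -4.14 ± 0.40 SE, edgeR adjusted p = 5.67e-09), and with 4 class I UMIs the pooled level was 0.0557 of that in class II cells (exact interval 0.0151 to 0.143). Nfix (chr8:84699876-84800344), a nuclear factor I transcription factor, was at 18.9, 25.1, 11.9 and 21.7 CPM against 178, 176, 308 and 340 CPM (log2 -3.54 ± 0.20 SE, edgeR adjusted p = 2.32e-15). Both were separated in all 4 libraries. Nfib, of the same family, differed by -1.61 ± 0.31 SE on the log2 scale (edgeR adjusted p = 0.00106), and Nrp2, a semaphorin receptor, by -1.33 ± 0.30 SE (edgeR adjusted p = 0.00718). The Nrp2 adjusted p was 0.0873 without P3 and 0.144 without P7. Nfia had 6 UMIs in class I cells and was not called (edgeR adjusted p = 0.634).

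Zone genes also differed between the classes in Gap43 cells. Nqo1 was at 1089, 648, 410 and 568 CPM in class I and 363, 215, 155 and 118 CPM in class II Gap43 cells (log2 1.62 ± 0.09 SE, edgeR adjusted p = 2.52e-24). For Acsm4 the class I sums were 781, 571, 379 and 731 CPM and the class II sums 57.2, 72.8, 47.5 and 79.7 CPM (log2 3.27 ± 0.12 SE, edgeR adjusted p = 3.28e-37). Ncam2, Nrp2, Nfib and Nfix, which were all the ventral genes tested there, fell by log2 2.86, 3.61, 3.38 and 2.85, on 7, 2, 4 and 13 class I UMIs. The pooled Nrp2 level was 0.0685 of that in class II cells (exact interval 0.00821 to 0.252). In 1 fit over both gates, the class difference was larger in Gap43 than in Omp cells for Acsm4 (by log2 1.93, adjusted p = 9.23e-14) and for Nqo1 (by 0.48, adjusted p = 0.0337), and 165 of 7282 genes (2.27%) passed that test. Robo2, Ncam2, Nrp2, Nfib and Nfix did not pass it. Robo2 was higher in class I Gap43 cells in 3 of 4 libraries (log2 0.60 ± 0.19 SE, edgeR adjusted p = 0.0294).

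**Figure D3:**
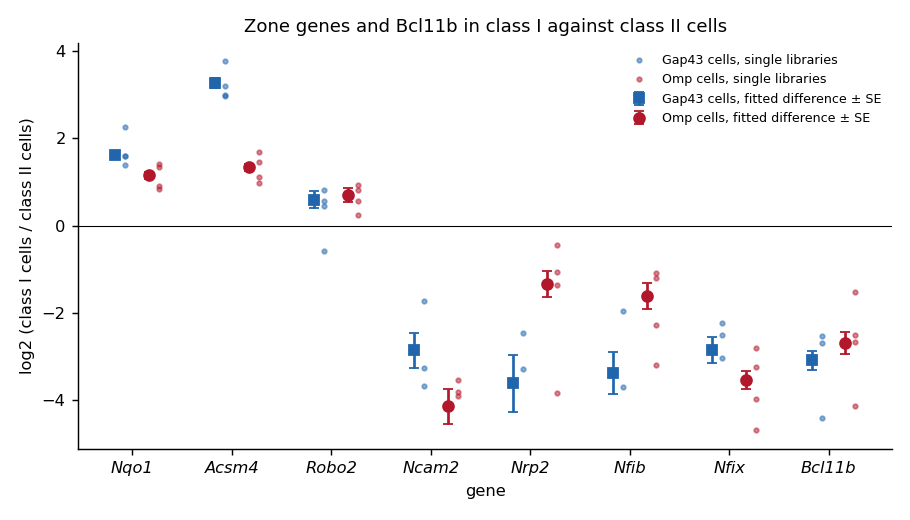
Log2 ratio of class I to class II cells for zone genes and Bcl11b, in Gap43 cells (squares) and Omp cells (circles); large symbols are edgeR fits with SE and small dots are single libraries, where a library with 0 UMIs in class I cells has no dot. Nqo1 and Acsm4 lie above 0 in every library, and Ncam2, Nrp2, Nfib, Nfix and Bcl11b lie below 0 in every library drawn.

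Bcl11b (chr12:107910403-108003602) was found in 10 of 246 class I and 675 of 1953 class II Omp cells. It was at 15.1, 6.86, 23.8 and 25.3 CPM against 85.9, 121, 151 and 72.1 CPM (log2 -2.70 ± 0.26 SE, edgeR adjusted p = 2.84e-09). In Gap43 cells it was at 37.0, 37.0, 18.3 and 0 CPM against 212, 240, 389 and 221 CPM (log2 -3.09 ± 0.21 SE, edgeR adjusted p = 2.66e-20), and in 11 of 158 against 472 of 759 cells. In Omp cells it was the only call among 18 genes of that list, whose median log2 difference was -0.04. Lhx2 and Ebf1, transcription factors that bind receptor enhancers, differed by 0.17 ± 0.10 SE and 0.07 ± 0.07 SE (edgeR adjusted p = 0.601 and 0.807). In Gap43 cells 5 of 16 fell, Lhx2 by 0.44 ± 0.10 SE and Ebf1 by 0.23 ± 0.07 SE (edgeR adjusted p = 0.00171 and 0.0184), besides Bcl11b, Ddit3 and Smchd1, where 3.87% of all genes fell. Maturity markers moved beside them in class I Gap43 cells, where 3.92% of all genes were higher. Of 5 mature markers Cnga2 and Gnal were higher, and of 5 immature markers Gap43, Gng8, Stmn2 and Tubb3. Gap43 and Omp, which are on these lists, set the gate and are no result. The part of maturity markers in the calls of lower genes was not tested.

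The largest fitted difference was that of Fam19a4. Fam19a4 (chr6:96831203-97060413), a secreted protein of the TAFA family, was found in 95 of 246 class I Omp cells (38.6%, exact interval 32.5 to 45.0%), in 10 of 1953 class II Omp cells (0.512%, 0.246 to 0.940%) and in 3 of 1649 non-neuronal cells (0.182%), at median depths of 4569.5, 4903 and 3311 UMIs. By library the class I share was 41.9%, 46.6%, 34.0% and 29.3%, and the class II share was below 1% in all 4. Its level was 148, 144, 163 and 97.5 CPM against 2.51, 1.52, 1.10 and 0.549 CPM (log2 6.59 ± 0.27 SE, edgeR adjusted p = 5.26e-19). Cells of 52 of the 82 leading members held it, and of the 28 members that led 4 or more Omp cells, 25 did. In Gap43 cells it was present in 34 of 158 class I and 6 of 759 class II cells, at 69.9, 77.2, 42.8 and 32.5 CPM against 1.88, 0, 1.83 and 5.14 CPM (log2 5.09 ± 0.52 SE, edgeR adjusted p = 1.6e-12).

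Among the other genes with the largest differences in class I Omp cells was Bmp3. Bmp3, a growth factor of the bone morphogenetic protein family, was in 38 class I and 47 class II Omp cells, at 34.1, 57.1, 43.6 and 25.3 CPM against 4.02, 9.51, 6.06 and 4.39 CPM (log2 2.72 ± 0.33 SE, edgeR adjusted p = 4.41e-07). The 10 with the largest differences by the naming rule were Fam19a4, Cfap161, Sgms1, Gm11750, Serpina1b, Misp, Fam159a, Bmp3, Stum and C230079O03Rik, with log2 differences from 6.59 down to 2.60. Cfap161, Sgms1 and Gm11750 rest on 10, 12 and 12 class I cells. Serpina1b and Serpina1a, protease inhibitor genes named here for Omp and Gap43 cells, belong to a group of near-identical copies whose reads may be split between them. The 10 with the largest differences in the other direction were Ncam2, Slc16a7, Nfix, Aldh3b1, Apaf1, C130074G19Rik, Bcl11b, Gldc, Wee2 and Meis3. Gldc, a glycine decarboxylase subunit, was at 45.4, 34.3, 7.93 and 7.22 CPM against 158, 141, 144 and 149 CPM (log2 -2.53 ± 0.22 SE, edgeR adjusted p = 5.74e-10). Slc16a7 had 1 UMI in class I cells, a pooled level of 0.0700 of that in class II cells (0.00176 to 0.398). Aldh3b1 had 2 UMIs, at 0.0936 (0.0112 to 0.343), C130074G19Rik 2, at 0.115 (0.0138 to 0.424), and Apaf1 3, at 0.118 (0.0242 to 0.350).

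Tppp3 (chr8:105467493-105471526), a tubulin-binding protein, stood out in Gap43 cells. There it was at 465, 824, 783 and 552 CPM in class I and 38.5, 66.3, 36.5 and 36.0 CPM in class II cells, and it was found in 120 of 158 against 100 of 759 cells (log2 3.86 ± 0.12 SE, edgeR adjusted p = 1.71e-41). In Omp cells it was at 526, 763, 337 and 293 CPM against 143, 221, 147 and 101 CPM (log2 1.67 ± 0.09 SE, edgeR adjusted p = 3.28e-15). The difference between the gates was 2.20 on the log2 scale (adjusted p = 1.56e-15). The other genes named for Gap43 cells were Fam19a4, Bmp3, Serpina1a and Stum, which were higher, and Nrp2, Nfib, Bcl11b, Alcam and Ncam2, which were lower. Alcam, an adhesion molecule, had 2 class I UMIs there, at 0.119 of the class II level (0.0142 to 0.444).

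**Figure D4:**
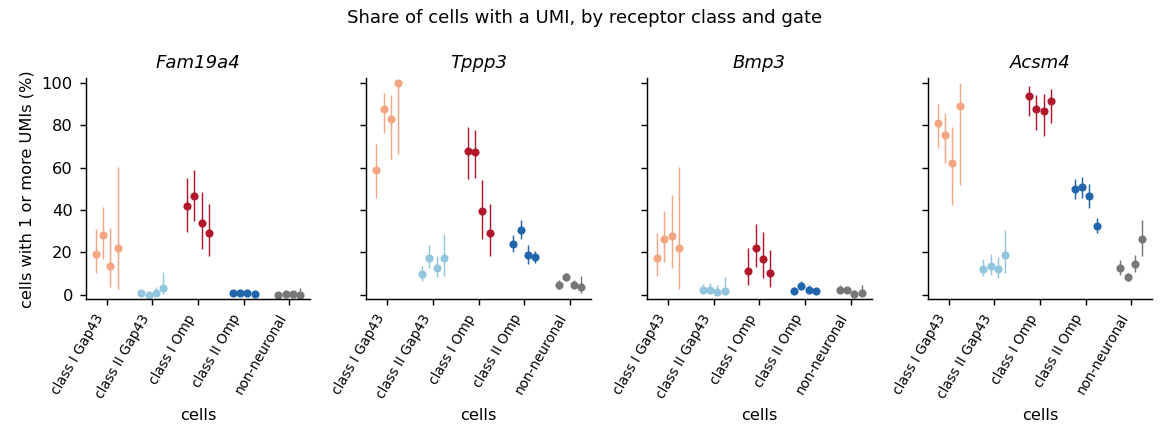
Share of cells (%) with 1 or more UMIs of Fam19a4, Tppp3, Bmp3 and Acsm4 in class I and class II Gap43 and Omp cells and in non-neuronal cells; each point is 1 library in the order P0, P3, P7 and P21, and bars are exact 95% intervals. Class I points lie above class II points of the same gate and library for all 4 genes, and Fam19a4 stays at or below 3.13% outside class I cells.

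The summed class I Omp cells also held more transcripts of immature neurons, which bears on the counts above. Of 5 immature markers 4 were higher in the class I sums, where 1.25% of all genes were: Gap43, Gng8, Stmn2 and Dpysl3. Gap43 was at 1378, 1846, 1063 and 1318 CPM against 1178, 1536, 784 and 521 CPM (log2 0.57 ± 0.10 SE, edgeR adjusted p = 0.000456). Cells with 3 or more Gap43 UMIs were 56.5%, 67.1%, 22.6% and 22.4% of class I Omp cells. In class II Omp cells they were 46.6%, 53.5%, 30.1% and 14.4%, so the class I share was lower at P7. Median Gap43 UMIs were 0 in both classes at P7 and P21. Omp, the gate gene, and Stoml3 were lower, Stoml3 at 3762, 2255, 4037 and 5916 CPM against 5069, 3476, 6038 and 9769 CPM (log2 -0.57 ± 0.06 SE, edgeR adjusted p = 6.08e-08). Of 17 transduction genes 7 fell and 0 rose (median -0.24), where 1.11% of all genes fell. The 7 include Omp, whose UMIs set the gate and which is therefore no result. The channel genes Cnga4 (log2 -0.47 ± 0.11 SE) and Ano2 (log2 -0.68 ± 0.12 SE) were among the 7. In Gap43 cells, of 14 transduction genes tested, Gnal, Cnga2 and Gfy rose and Gng13 fell (median 0.30). With Omp cells limited to those under 3 Gap43 UMIs, 40 genes were higher and 51 lower. In that set Nqo1 (log2 1.21), Acsm4 (1.15), Ncam2, Nfix (-3.50), Bcl11b (-2.40) and Fam19a4 (6.60) were still called, and Robo2, Nrp2, Nfib and Bmp3 were not (edgeR adjusted p = 0.163, 0.484, 0.138 and 0.0526). Of 8 markers of other cell types with enough UMIs to be tested in Omp cells, Car2 was called. The summed sustentacular markers were at 0 to 15.1 CPM in class I and 3.80 to 14.1 CPM in class II Omp cells, and the summed leukocyte markers at 0 to 3.97 and 3.42 to 6.02 CPM. Stromal markers ranged from 3.61 to 123 CPM in class I and 3.29 to 42.2 CPM in class II Omp cells, highest in both at P3, and progenitor markers from 7.22 to 107 CPM and from 6.06 to 40.7 CPM, with the highest class I value at P7. The part of these markers, and of the lower depth of class I cells at P7 (a median of 4225 against 5488.5 UMIs), in the counts was not tested. Car2, counted as a marker of guanylate cyclase D neurons, was lower in class I cells (log2 -1.87 ± 0.22 SE, edgeR adjusted p = 2.99e-07).

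Axon guidance genes were called in both gates, some of them zone genes. In Omp cells 27 of 28 were tested and 6 called, where 2.35% of all genes were. Of these Robo2 and Ncam1 rose and Nrp2, Ncam2, Kirrel2 and Pcdh17 fell. Ncam1, an adhesion molecule of all olfactory axons, was higher in class I sums of 4 libraries by log2 0.31 ± 0.07 SE (edgeR adjusted p = 0.0126). Pcdh17, a protocadherin, was at 185, 130, 127 and 65.01 CPM against 209, 239, 219 and 159 CPM (log2 -0.71 ± 0.13 SE, edgeR adjusted p = 0.000629). Kirrel2, a sorting molecule that varies with receptor activity, was lower in 3 of 4 libraries (log2 -0.56 ± 0.12 SE, edgeR adjusted p = 0.00462). In Gap43 cells Ncam1, Robo2 and Cntn4 rose and Nrp2, Ncam2, Pcdh17 and Tenm2 fell, 7 of 13 tested, where 7.8% of all genes were called.

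Since class II receptors are used in both zones, the comparison was repeated among Omp cells with 3 or more Nqo1 UMIs. These were 56, 57, 35 and 41 class I and 223, 184, 125 and 206 class II cells. Inside the gate Nqo1 was at 5824, 3693, 3453 and 3467 CPM in class I cells. In class II cells it was at 3954, 3413, 3247 and 3554 CPM. The gate thus sets a minimum and did not match the classes for Nqo1 level, with the widest gap at P0. The part of this in the calls was not tested. Of 6950 genes 1.71% differed, and 65 (0.935%) were higher and 54 (0.777%) lower in class I cells (edgeR, adjusted p under 0.05); 58 of the 65 and 38 of the 54 were also calls of the full Omp comparison, with which it shares its cells. Fam19a4 was at 148, 146, 201 and 104 CPM against 4.92, 0.795, 2.76 and 1.91 CPM (log2 5.78 ± 0.30 SE, edgeR adjusted p = 7.19e-24). Bcl11b was at 16.9, 0, 0 and 27.1 CPM against 68.9, 105, 97.9 and 52.5 CPM (log2 -2.98 ± 0.37 SE, edgeR adjusted p = 5.99e-08; DESeq2 adjusted p = 0.768). Nfix was at 12.7, 11.6, 0 and 18.1 CPM against 49.2, 64.4, 114 and 66.8 CPM (log2 -2.62 ± 0.34 SE, edgeR adjusted p = 1.39e-07). Acsm4 differed by 0.35 ± 0.08 SE on the log2 scale (edgeR adjusted p = 0.00316), and Robo2 was not called (0.55 ± 0.16 SE, edgeR adjusted p = 0.0679). The other named genes were C230079O03Rik, Fam159a, Misp and Bmp3, which were higher, and Pcdh7, Adam28 and Gm42912, which were lower. The immature markers Gap43, Stmn2 and Tubb3 were higher in the class I sums here too, and with under 3 Gap43 UMIs 23 genes were higher and 19 lower. DESeq2 called 12 and 11 genes, and 17 and 11 were called with class II cells limited to receptors of chromosome 7. Without P3 the counts were 42 and 31, without P21 34 and 29, and without P0 29 genes were lower.

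Nqo1 levels ranged widely among class I neurons grouped by the receptor they used. Of 246 class I Omp cells, 189 held 3 or more Nqo1 UMIs and 19 held 0. Olfr672 cells had a median of 38.0 Nqo1 UMIs (10 cells, 3 to 84), Olfr689 cells 40.0 (6 cells, 5 to 54), Olfr69 cells 44.0 (4 cells, 30 to 92) and Olfr667 cells 36.5 (4 cells, 33 to 58). At the other end, all 4 Olfr78 cells, 1 at P0 and 3 at P7, had 0 Nqo1 UMIs, and the 5 Olfr691 cells of 3 libraries had a median of 0 and at most 3. Omp cells that used Olfr690, its neighbour, had a median of 1.0 and at most 3.0; cells that held both receptors count for each. Olfr570 cells had a median of 0.5 (4 cells, 0 to 13) and Olfr675 cells of 2.0 (4 cells, 1 to 5). Acsm4 was present in 4 of 4 Olfr78 cells, 5 of 5 Olfr691 cells, 3 of 4 Olfr570 cells and 4 of 4 Olfr675 cells. These 4 members were those with a median under 3 among the 28 that led 4 or more cells. These UMIs are not scaled for depth, and the median over class I Omp cells also differed by library (20, 9, 8 and 8 at P0, P3, P7 and P21). The part of library and depth in the order of members was not tested. Cells are not replicates, and the members were ranked on these cells, so no test is given.

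**Figure D5:**
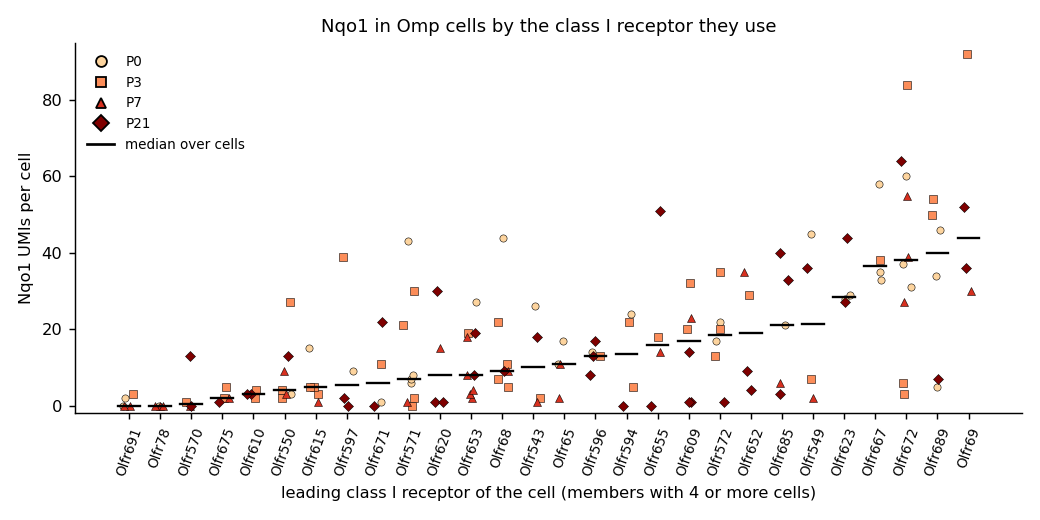
Nqo1 UMIs per Omp cell by the class I receptor that led the cell, for the 28 members that led 4 or more cells, ordered by median (black lines), with symbols for the 4 libraries. Olfr691 and Olfr78 have medians of 0, and Olfr69 has the highest median, 44.0.

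The 57 class I Omp cells with under 3 Nqo1 UMIs were first pooled over the libraries. They lay nearer to other class I cells for some genes and nearer to class II cells for others. Acsm4 was present in 41 of them (71.9%, 58.5 to 83.0%), next to 95.2% of class I cells with Nqo1, 82.7% of class II cells with Nqo1 and 18.7% of class II cells without. Fam19a4 was present in 16 (28.1%, 17 to 41.5%), against 41.8% of class I cells with Nqo1 and 0.247% of class II cells with under 3 Nqo1 UMIs. Tppp3 was present in 15 (26.3%, 15.5 to 39.7%), against 60.3% and 20.4%, and Bmp3 in 2 (3.51%, 0.428 to 12.1%), against 19.05% and 1.65%. The Tppp3 share differed by library: 3 of 6 cells at P0, 10 of 16 at P3, 1 of 18 at P7 and 1 of 17 at P21. In class I cells with Nqo1 it was 69.6%, 68.4%, 57.1% and 39.0%. In class II cells with under 3 Nqo1 UMIs it was 21.7%, 29.5%, 16.4% and 17.3%. Bcl11b was in 5 (8.77%, 2.91 to 19.3%) against 36.9%, and Nfix in 8 (14%, 6.26 to 25.8%) against 71.6%. Median depth was 3831 UMIs in the 57 cells, 4675 in class I cells with Nqo1 and 4735 in those class II cells. At P7 and P21 it was 2868 and 1727 UMIs in the former, against 4574 and 4827 in class I cells with Nqo1. The part of depth and library in these shares was not tested. Ncam2 was in 2 of the 57, and of the 4 class I cells with Ncam2 in all, 3 used Olfr571. Non-neuronal cells had an Acsm4 UMI in 11.8%, a Bcl11b UMI in 6.85% and an Nfix UMI in 34.6%, at a median of 3311 UMIs.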

How the data were processed

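Single-cell 3′ libraries of the olfactory epithelium, 1 per age, were deposited as UMI counts per gene and cell barcode, which are raw counts without normalization. Seurat, Cell Ranger (2.1.1) and mm10 are listed, per the submitters' processing notes, without saying what each was used for, and the gene annotation used for counting is not given in the sources used here. From these counts, cells with under 500 genes, over 10% mitochondrial or over 10% haemoglobin UMIs were left out. No doublet caller was run; leaving out the top 5% of cells by UMIs was tried instead. Cells with 3 or more UMIs of a class I receptor and under 3 of every class II receptor, and the reverse, were summed per library into 8 sums. These were compared with edgeR 4.0.16 (R 4.3.3; TMM scaling, filterByExpr, quasi-likelihood test, library as a block, Benjamini-Hochberg adjustment over all genes tested). Receptor genes chose the cells and were not tested, and Omp, Gap43 and Nqo1 are gate genes where they set the gate. Library is in the model because both sums come from the same cells' library. DESeq2 1.42.0 was an alternative. Intervals are exact 95% intervals (scipy 1.17.1) and cover counting error only. On data simulated for the Omp comparison, with 9417 genes tested, 65% of genes changed 2-fold and 98% of those changed 4-fold were called, with 4 false calls of 167. The changed genes were drawn only from those above a minimum mean count, and the dispersion was fixed. These rates therefore do not describe calls that rest on few UMIs. Depth was 6861044 to 17770838 UMIs per library.

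The members and gene lists were chosen with earlier results of these data known. The receptors named are the 25 with the highest mean share of Omp cells over the libraries and the 8 outside the numbered run. The other genes named are the zone genes and, among those called with the same sign in all 4 libraries, the 10 highest and 10 lowest log2 differences in Omp cells and 5 and 5 in the other comparisons. Genes of the other lists, with Tppp3 in Omp cells, were named in addition after their values were seen. Alternatives were other UMI thresholds, scalings, filters, designs, class II cells of chromosome 7, thinned cells and each library left out. Leaving out barcodes shared by P0 and P3, leaving out Omp cells with 3 or more Gap43 UMIs in the class comparison, leaving out cells led by Olfr672, and the joint fit of both gates were added after seeing the data.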

Additional observations from a re-analysis of the deposited data

Results flagged for a closer look

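In the joint fit of Gap43 and Omp cells, the class I to class II difference itself differed between the gates for 4 of the genes named (edgeR, interaction of class and gate, adjusted over 7282 genes). The log2 difference was larger in Gap43 cells by 2.20 ± 0.16 SE for Tppp3 (3.86 against 1.67, adjusted p = 1.56e-15), by 1.93 ± 0.16 SE for Acsm4 (3.27 against 1.34, adjusted p = 9.23e-14) and by 0.48 ± 0.13 SE for Nqo1 (1.62 against 1.15, adjusted p = 0.0337). It was smaller in Gap43 cells for Fam159a, by -1.60 ± 0.34 SE (1.23 against 2.85, adjusted p = 0.00372). Acsm4 ranged over the libraries from 47.5 to 79.7 CPM in Gap43 and from 293 to 524 CPM in Omp cells of class II, and from 379 to 781 and from 896 to 1143 CPM in those of class I. The groups of 1 library per age leave no group of 4 or more samples in which a single library could be tested as standing apart.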

How the results depend on the processing

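The leading receptor's class I to class II difference in Omp cells turned from 0.24 to -0.048 (log2) without the Olfr672 cells. These were left out of the class I side only, which lowers that side by design. No other value changed direction under the alternatives run. Of the 110 alternative values for zone genes 97 kept their side of the threshold and 13 lost the call, and of 411 for the other named genes 371 kept it and 40 lost it. The counts of called genes moved most. Higher and lower calls in Omp cells were 47 and 32 with DESeq2, 14 and 9 with no library term, 49 and 56 against class II cells of chromosome 7, and 40 and 51 in Omp cells with under 3 Gap43 UMIs. Using no filter on low counts 242 were lower, and with a library left out 72 to 90 were higher and 55 to 67 lower. In Nqo1 cells they were 12 and 11 with DESeq2, 5 and 5 with no library term, 17 and 11 for chromosome 7, 23 and 19 with under 3 Gap43 UMIs, 34 to 48 and 29 to 40 with a library left out, and 101 were lower with no filter. In Gap43 cells they were 75 and 83 with DESeq2, 51 and 30 with no library term, 92 and 127 for chromosome 7, 142 to 231 and 137 to 239 with a library left out, and with no filter 126 were higher. Of the edgeR calls, DESeq2 shared 79 of its 79 in Omp, 23 of 23 in Nqo1 and 157 of 158 in Gap43 cells. Without the barcodes shared by P0 and P3 the counts were 113 and 100, 66 and 56, and 230 and 234.

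With no library term, Nqo1 (log2 1.18, adjusted p = 0.0861), Robo2 (0.71, 0.295), Nrp2 (-1.31, 0.266) and Nfib (-1.63, 0.0659) were not called. With DESeq2, Robo2 (0.70, 0.113) and Nrp2 (-1.35, 0.215) were not. In Omp cells with under 3 Gap43 UMIs, Robo2 (0.69, 0.163), Nrp2 (-1.02, 0.484) and Nfib (-1.51, 0.138) were not. With a library left out, Robo2 ranged from 0.60 to 0.82 and Nrp2 from -1.68 to -0.98. The cause of these losses was not tested. Class I use at P3 was 10.3% in Omp cells with under 3 Gap43 UMIs and 8.40% in Gap43 cells thinned to 2000 UMIs. Thinned, the leading receptor's median was 10, 11.5, 16 and 17.5 UMIs in order of age. No paired analysis was possible because each age has 1 library, so groups share only the replicate number 1; class I and class II sums were paired by library in the model.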

Other observations

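Pseudogene rows of the same cluster, which the choice of members left out, were also used by neurons. Of 29 such rows 10 had a UMI and 5 were used, by 9 cells in all: Olfr548-ps1, Olfr588-ps1, Olfr602-ps1, Olfr650-ps1 and Olfr682-ps1. Olfr588-ps1 led with 4 cells, holding 35 and 42 UMIs at P0, 68 at P3 and 83 at P7. In 6 of the 9 cells no other receptor was used. All 9 held Acsm4 UMIs, from 3 to 8 each. Fam19a4 was in 3 of the 3 cells that also used another receptor and in 1 of the other 6, with 1 UMI.

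Fam19a4 was also found in 16 class II cells, 10 Omp and 6 Gap43 cells. They used 15 receptors, and Olfr243 was the one found in more than 1 of these cells, in 2 of its 6. The member Olfr628 shares 18% of its 98-base stretches with Olfr243, so their reads could be counted for each other. Olfr243 also lies on chromosome 7, and the 2 cells held 35 and 85 of its UMIs. It is called class II here by its number alone, and whether it belongs to class I was not tested. None of the 16 cells held a class I UMI.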
